A study of Mus musculus with 2 samples.

Results

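The genes Crygd, Scml2, Myh13, Cox7b2, Gm9732, 1700013H16Rik, 6330410L21Rik and 1700018B24Rik were followed in single mouse embryonic stem cells (mESC). They were chosen by their symbols from earlier results on these same counts, in which they stood higher in MERVL GFP positive cells with little sign of the 2C-like state, and they are 8 of the 55415 features counted. Their difference between the libraries is therefore a description and supports nothing. The stem cell line carries GFP under a MERVL promoter and an H2B-mIFP fusion for tracking cells, and both groups share these constructs. The groups are MERVL GFP positive and MERVL GFP negative, with 1 library each. No treatment, age or passage is given for either group, and how many clones the line holds is not stated. The batch named in the labels is the same as the group, so library, batch and reporter group cannot be told apart. With 1 library per group there is no replicate check and no test, and every interval covers counting error only.

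MERVL is an endogenous retrovirus transcribed in the cleavage embryo at the time its own genome is first switched on. In a stem cell culture a few cells enter a passing state that resembles this stage, the 2C-like state, in which MERVL and the Zscan4 genes are transcribed. GFP from the MERVL promoter reports that state; how the cells were separated by it is not stated. Embryonic stem cells also transcribe a number of genes best known from the germ line.

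Of the named genes, Crygd encodes a gamma crystallin, a structural protein of the lens fibre. Scml2 encodes a Polycomb protein of the sex comb on midleg family that is abundant in male germ cells. Myh13 encodes the myosin heavy chain of eye and laryngeal muscle, and Cox7b2 a testis form of a subunit of cytochrome c oxidase, the last complex of the respiratory chain. Gm9732 and 1700013H16Rik are annotated as protein coding, 6330410L21Rik as an antisense RNA and 1700018B24Rik as a long intergenic RNA. In GENCODE on mm10 they lie at chr1:65061872-65063452 (Crygd, minus strand), chrX:161117193-161258213 (Scml2, plus), chr11:67321658-67371586 (Myh13, plus), chr5:71442824-71548205 (Cox7b2, minus), chr14:43275036-43306011 (Gm9732, plus), chrX:53742901-53757831 (1700013H16Rik, minus), chr3:129753758-129763884 (6330410L21Rik, plus) and chr3:48605732-48609102 (1700018B24Rik, minus). Thus 2 of the 8, Scml2 and 1700013H16Rik, are on the X chromosome, and no pair of the 8 are neighbours.

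The genes differ in how surely reads can be assigned to them. No stretch of 31 bases in the transcripts of Scml2, 1700013H16Rik or 1700018B24Rik occurs in another gene, and Cox7b2 shares 0.195% of its stretches. Crygd shares 25.1% of its stretches with Cryge, the next gamma crystallin gene. Myh13 shares 13.4%, of which 8.59% with Myh8. 6330410L21Rik runs antisense to Egf and shares 14.7%, so without knowledge of the strand used in counting its reads and those of Egf cannot be told apart, although Egf itself was listed at only 2.10 and 1.29 CPM (UMIs of a gene scaled to a total of 1000000 over the library). Gm9732 shares 69.7% of its stretches with 190 other genes and overlaps Gm17153 and Gm8127, and its counts are uncertain.

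RefSeq on GRCm38.p6, the same assembly as mm10, gave a promoter for 6 of the 8. For Crygd, Scml2 and Myh13 the RefSeq start lies inside the GENCODE gene given above, downstream of its first base, and the windows follow RefSeq. The 250 bases before the start are shown for the 3 protein-coding genes that were most often detected together, and for Myh13 as a contrast in base composition. Capitals mark CG, the dinucleotide at which mouse DNA is methylated.
Scml2, chrX:161162500-161162749, plus strand: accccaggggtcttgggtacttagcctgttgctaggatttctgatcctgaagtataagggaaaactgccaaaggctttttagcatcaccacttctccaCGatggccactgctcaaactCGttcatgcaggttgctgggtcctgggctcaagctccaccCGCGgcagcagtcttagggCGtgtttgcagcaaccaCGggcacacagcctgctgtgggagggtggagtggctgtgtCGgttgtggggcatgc
Cox7b2, chr5:71548206-71548455, minus strand: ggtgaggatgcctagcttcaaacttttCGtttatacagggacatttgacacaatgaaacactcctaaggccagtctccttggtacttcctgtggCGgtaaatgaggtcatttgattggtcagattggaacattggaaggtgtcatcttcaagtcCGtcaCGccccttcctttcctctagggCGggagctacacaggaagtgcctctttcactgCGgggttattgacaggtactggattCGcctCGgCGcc
1700013H16Rik, chrX:53757832-53758081, minus strand: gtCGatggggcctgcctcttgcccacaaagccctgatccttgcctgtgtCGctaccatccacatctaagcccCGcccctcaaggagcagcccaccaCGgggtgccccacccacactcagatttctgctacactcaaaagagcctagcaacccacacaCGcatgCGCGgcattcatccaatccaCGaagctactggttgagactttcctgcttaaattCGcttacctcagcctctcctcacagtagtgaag
Myh13, chr11:67326853-67327102, plus strand: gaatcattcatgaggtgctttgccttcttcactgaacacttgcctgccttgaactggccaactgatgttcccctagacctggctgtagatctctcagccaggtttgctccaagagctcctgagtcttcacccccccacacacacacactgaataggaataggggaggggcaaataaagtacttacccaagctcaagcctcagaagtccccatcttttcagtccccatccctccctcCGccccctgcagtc

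The windows of Cox7b2 and 1700013H16Rik each hold 9 CG and that of Scml2 holds 7, against a median of 6 over 27025 mouse promoters. Those of Crygd and 6330410L21Rik hold 6 and 5. That of Myh13 holds 1. The GC box GGGCGG, searched on both strands, is present in 3 of the 6, namely Myh13, Cox7b2 and 1700013H16Rik, and in 32.9% of all promoters. CCAAT is present in Cox7b2 and 1700013H16Rik and in 34.5% of all promoters. TATAAA is present in Cox7b2 alone of the 6 and in 13.0% of all. Neither the E-box CACGTG, held by 6.05% of all promoters, nor the motif of Dux, the factor that starts the 2C-like program, held by 0.037%, is present in these 6 windows. These matches describe letters and show no binding.

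The positive library held 4596 cells after filtering, with 138303336 UMIs and a median of 29554 UMIs and 5554 genes per cell. The negative library held 3832 cells, 156406894 UMIs and medians of 39100 and 5846, and the 2 libraries shared 3 barcodes. Pluripotent markers were high in both, with Pou5f1 at 278 and 389 CPM by the sum over cells and Sox2 at 454 and 529 CPM. GFP stood at 205 CPM in the positive and 0.454 CPM in the negative library, and the sum of Zscan4a to Zscan4f at 322 and 0.627 CPM. For classes of cells, each cell was thinned to 10000 UMIs, and 194 cells of the positive and 8 of the negative library fell below that depth. Of the 4402 positive-library cells that remained, 1044 had neither a GFP nor a Zscan4 UMI and are called double-negative here. The name of the set, cells outside the 2C-like state, holds only in part: the double-negative cells still had 486 CPM of a list of 28 2C genes against 1.83 CPM in the double-negative cells of the negative library. Whether this is free RNA or low transcription was not tested.

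All 8 genes were higher in the positive library, by 2.85-fold to 6.78-fold. 1700013H16Rik had 41.1 CPM (95% Poisson interval 40.1 to 42.2) in the positive and 6.07 CPM (5.69 to 6.47) in the other library; the ratio was 6.78 (exact interval 6.33 to 7.27). Scml2 had 24.8 CPM (23.9 to 25.6) and 4.36 CPM (4.04 to 4.70), a ratio of 5.68 (5.23 to 6.18). These 2 passed the size rule of at least 10 CPM, 50 UMIs and a 4-fold ratio of CPM + 1. Over all 8042 genes that could pass, 3% were higher by this rule, from which nothing is read because the genes were chosen on this contrast.

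The muscle, respiratory and lens genes came just short of the rule. Cox7b2 stood at 18.2 and 4.12 CPM (ratio 4.43, 4.06 to 4.84), Myh13 at 26.6 and 6.25 CPM (4.25, 3.96 to 4.56) and Crygd at 15.1 and 3.61 CPM (4.19, 3.81 to 4.60). The long intergenic RNA 1700018B24Rik had 33.3 and 7.69 CPM, and Gm9732 had 10.7 and 2.61 CPM. The antisense RNA 6330410L21Rik had the highest level in each library, 43.4 and 15.2 CPM, and the smallest ratio, 2.85 (2.72 to 2.99). The median log2 ratio of CPM + 1 was 1.92 for the 8 against 0.14 for all genes tested.

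By the median of the 8 genes, the difference was larger in cells with no thinned UMI of GFP or Zscan4. It was smaller in the few that lacked the whole 2C list as well. Setting the 1044 double-negative positive-library cells against the 3800 of the other library, 7 of the 8 passed the 4-fold rule, all but 6330410L21Rik, where 0.613% of 7829 genes did (48 genes, the 7 included). 1700013H16Rik had 46.0 CPM (43.8 to 48.3) against 5.92 CPM (5.54 to 6.31), and Scml2 29.7 CPM (27.9 to 31.5) against 4.36 CPM (4.03 to 4.70). Gm9732 had 16.1 against 2.61 CPM, a ratio of 6.16 (5.41 to 7.01). Crygd had 21 against 3.53 CPM, a ratio of 5.94 (5.32 to 6.64).

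The other members of the set showed the same direction. Cox7b2 had 22.7 against 4.08 CPM, 1700018B24Rik 39.1 against 7.58 CPM and Myh13 31.5 against 6.24 CPM. 6330410L21Rik had 49.5 against 15.1 CPM, a ratio of 3.28 (3.08 to 3.48). The median log2 ratio was 2.23 for the 8 and 0.16 for all genes tested. In the 34 positive-library cells with no UMI of GFP or of the list of 28 2C genes, the median of the 8 was lower, 1.115, with the lowest at 0.36, and 2 passed. The members were picked with such cells in view, so the count of 7 describes the choice. With weighted trimmed-mean (TMM) scaling, which lowers the median of all genes from 0.16 to -0.18, all 8 were still higher but only 2 passed.

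Within the positive library, the 8 genes had lower CPM in cells rich in Zscan4 RNA. The genes were chosen for cells with little sign of the 2C-like state, so their direction by Zscan4 or GFP class is part of the choice, and the counts past the rule are given as a description. Cells with 5 or more thinned Zscan4 UMIs (840 cells) were set against those with none (1938 cells). Crygd had 4.90 CPM (99 UMIs) against 19.2 CPM, a ratio of 0.256 (0.206 to 0.314), and Gm9732 4.75 against 13.4 CPM, a ratio of 0.356 (0.285 to 0.440). These 2 of the 8 were lower by at least 2-fold, as were 2.64% of 8320 genes. The 4.90 CPM (3.98 to 5.97) of Crygd in the Zscan4-rich cells stands beside 3.61 CPM in the whole negative library.

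The other 6 stayed well above the negative library in the same cells. 1700013H16Rik differed least, with 37.4 against 43.0 CPM (ratio 0.870, 0.802 to 0.943), followed by Cox7b2 with 16.2 against 20.5 CPM and Scml2 with 20.8 against 27.4 CPM. 1700018B24Rik had 24.1 against 37.7 CPM, 6330410L21Rik 29.2 against 47.0 CPM and Myh13 17.7 against 29.0 CPM. All 6 intervals of the ratio lay below 1. Cells with 1 to 4 Zscan4 UMIs (1624 cells) lay between the outer classes for each gene of the 8. Depth moved with the classes: the median was 22192 UMIs and 3.02% mitochondrial UMIs in the Zscan4-rich cells and 32766 UMIs and 2.37% in cells with none, and its part in the difference was not tested.

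Classes by GFP RNA gave a similar picture with a different order of genes. In 783 cells with 5 or more thinned GFP UMIs against 1718 with none, Crygd had 5.70 against 21.3 CPM, Gm9732 4.61 against 14.7 CPM and Myh13 15.3 against 32.7 CPM. These 3 of the 8 were lower by at least 2-fold, as were 1.8% of 8204 genes, from which again nothing is read. Scml2 had 14.7 against 28.5 CPM, a ratio of 0.515 (0.453 to 0.583), and 1700013H16Rik 26.8 against 47.6 CPM, 0.563 (0.512 to 0.617). For 6330410L21Rik, with 32.1 against 47.5 CPM, the ratio was 0.677 (0.620 to 0.738).

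For 1700013H16Rik, cells high in Zscan4 only and cells high in GFP only stood apart. In the 101 cells with at least 5 Zscan4 UMIs and no GFP UMI it had 64.3 CPM, above the 46.0 CPM of double-negative cells, whereas in the 157 cells with at least 5 GFP UMIs and no Zscan4 it had 22.1 CPM. Endoderm-rich cells were 22.9% of those 157, 10.9% of the 101 and 10.4% of double-negative cells, and their part in the difference was not tested. Crygd was low in both, at 5.01 and 8.09 CPM. The 332 cells high in both had 24.9 CPM of 1700013H16Rik and 4.52 CPM of Crygd. Summed over the 8 genes, the level was 255 CPM in double-negative cells, 206 CPM in cells high in Zscan4 only, 136 CPM in cells high in GFP only and 128 CPM in cells high in both, against 49.4 CPM in double-negative cells of the negative library.

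**Figure D1:**
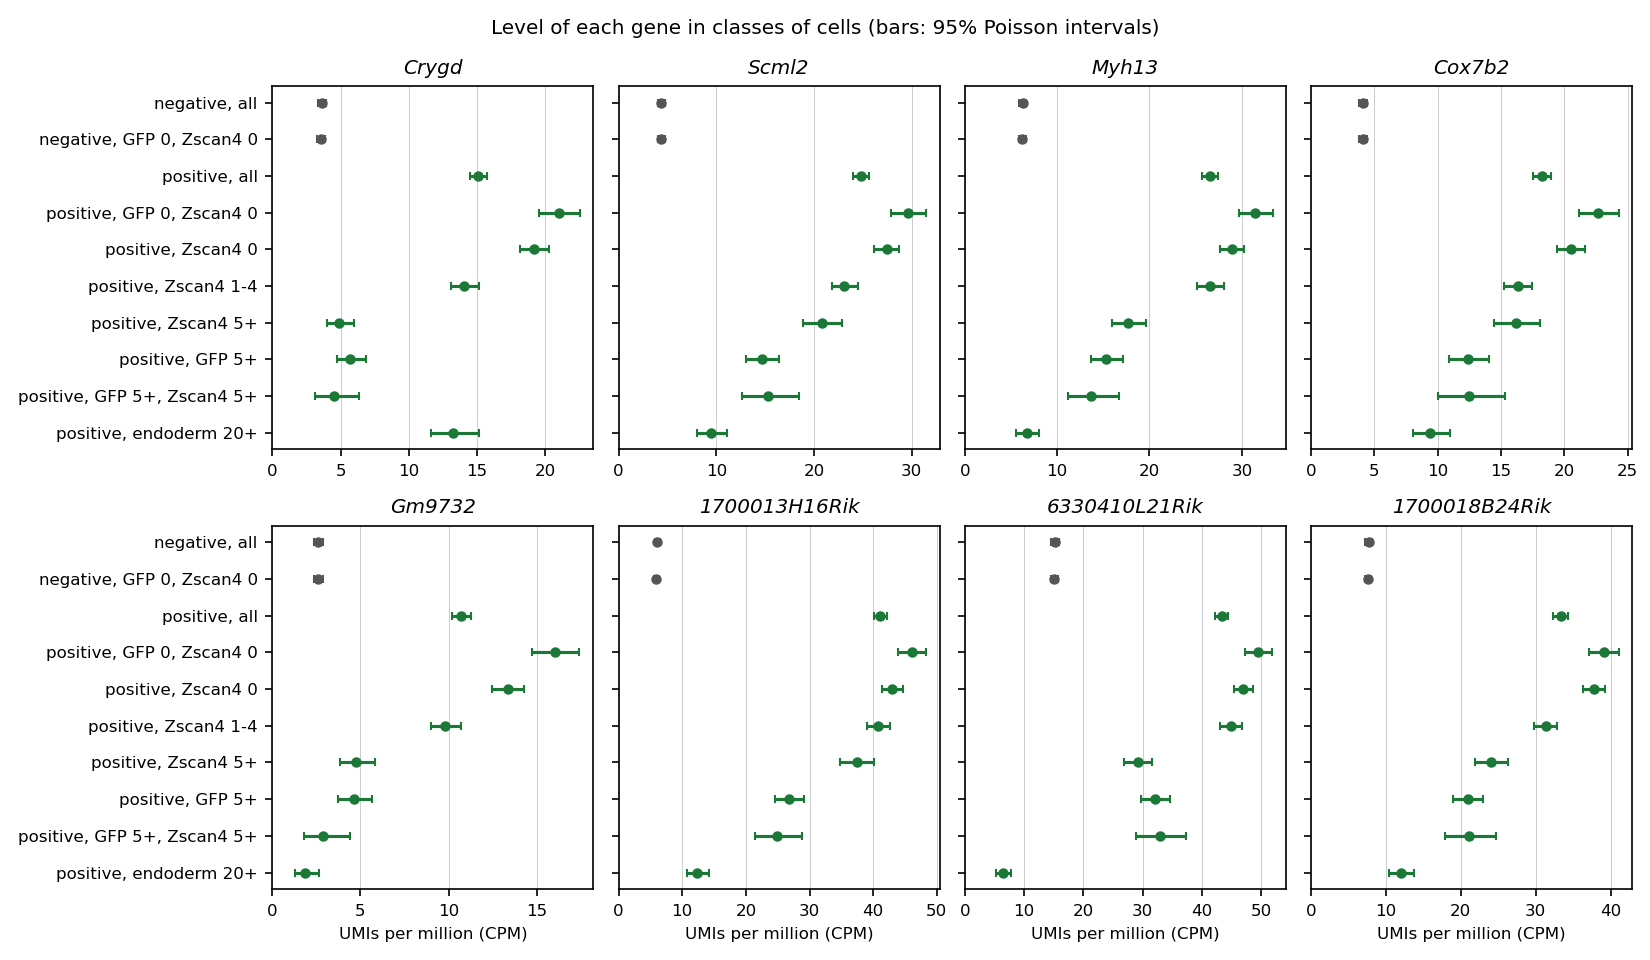
Level of each gene (x axis, CPM, linear from 0) in 10 classes of cells (y axis), as summed counts with 95% Poisson intervals, negative library in grey and positive library in green. Among the 10 classes drawn every gene is highest in double-negative cells of the positive library (GFP 0, Zscan4 0), but in classes not drawn some were higher, such as Crygd at 24.2 and Myh13 at 36.0 CPM in the 573 cells with no GFP and 1 to 4 Zscan4 UMIs; Crygd and Gm9732 are low in cells with 5 or more Zscan4 UMIs, and Crygd alone stays near its library level in cells rich in endoderm markers, at 13.3 against 15.1 CPM.

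A wider definition of the 2C-like state changed the picture for its lowest class. By the list of 28 2C genes, only 58 of the 4402 positive-library cells had no thinned UMI, 1306 had 1 to 4 and 3038 had 5 or more. The 8 genes summed to 160 CPM in the 58 cells, 237 CPM in the middle class and 203 CPM in the upper. Crygd had 17.8, 19.8 and 12.7 CPM in the same order, whereas 1700013H16Rik had 27.7, 38.6 and 43.1 CPM and Cox7b2 10.4, 20.4 and 17.4 CPM. Thus 6 of the 8, all but Crygd and Gm9732, were higher in the upper class than in the 58 cells, the reverse of the direction by Zscan4. This reversal rests on those 58 cells. Against the middle class, the sum of the 8 genes was lower in the upper class, the same direction as by Zscan4. In the 34 cells with no UMI of GFP or of the list, the 8 summed to 119 CPM, against 49.1 CPM in the 3762 such cells of the negative library.

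Positive-library cells that express endoderm markers were poor in 7 of the 8 genes. A class of 562 positive-library cells had at least 20 thinned UMIs of a list of 17 genes of primitive endoderm, the epithelium that borders the blastocyst cavity (Gata6, Sox17, Dab2, collagen and laminin genes), which came to 6080 CPM in these cells. Against the other 3840 cells, 6330410L21Rik had 6.49 against 48.9 CPM (ratio 0.133, 0.109 to 0.160), Gm9732 1.87 against 12.0 CPM and Myh13 6.72 against 29.2 CPM. 1700013H16Rik had 12.4 against 45.5 CPM, 1700018B24Rik 12.0 against 36.4 CPM and Scml2 9.47 against 27.0 CPM. These 6 of the 8 were lower by at least 2-fold, as were 5.97% of 8222 genes, and Cox7b2, with 9.41 against 19.6 CPM, came just short.

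Crygd was the exception. It had 13.3 against 15.4 CPM in the positive library (ratio 0.861, 0.747 to 0.989), and in the negative library 11.2 CPM (92 UMIs) in the 193 endoderm-rich cells against 3.19 CPM in the other 3631, with the ratio at 3.53 (2.79 to 4.42). Among negative-library cells 2 of the 8 reached 10 CPM in a class: Crygd was higher by at least 2-fold, as were 6.72% of 7654 genes, and 6330410L21Rik was lower, with 2.32 against 15.9 CPM, as were 4.06%. Cox7b2 was not lower there, with 4.52 against 4.10 CPM (ratio 1.1, 0.769 to 1.54). The endoderm-rich class made up 12.8% of the positive and 5.05% of the negative cells. Leaving it out of both libraries raised the number of the 8 past the 4-fold library rule from 2 to 5.

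A few negative-library cells carried 2C RNA. In the 11 cells with a thinned Zscan4 UMI, the 8 genes summed to 186 CPM, against 49.4 CPM in the double-negative cells of that library. 1700013H16Rik had 60.3 CPM in these 11 cells (24 UMIs, 38.6 to 89.7 CPM), but in only 18.2% of them (2.28% to 51.8%) at 10000 UMIs. 6330410L21Rik had 50.3 CPM (20 UMIs, 30.7 to 77.6 CPM). Crygd and Scml2 had 3 UMIs each. These sums rest on few UMIs.

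The genes were detected in a minority of cells in each library. At 10000 UMIs, 1700018B24Rik had a UMI in 21.9% (20.7% to 23.1%, Clopper-Pearson) of cells in the positive and 5.41% in the other library, 1700013H16Rik in 20.7% and 3.35%, Myh13 in 19.9% and 6.15%, 6330410L21Rik in 19.1% and 9.02%, and Scml2 in 18.0% and 3.92%. Cox7b2 was found in 12.9% and 3.03%, Crygd in 9.0% and 3.43% and Gm9732 in 7.86% and 2.82%. Before thinning, the shares in the positive library ran from 16.9% for Gm9732 to 39.6% for Myh13. No group of cells was set here as lacking the genes, so no background share was estimated. In endoderm-rich cells of the positive library the shares were as low as 1.96% for Gm9732 and 3.92% for Myh13, with a median of 28682 UMIs against 30385 in the other cells. Gm9732 was at 1.51% in the 332 cells high in both Zscan4 and GFP.

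Within cells the counts were uneven, most of all for 6330410L21Rik and 1700013H16Rik. In the positive library the variance of the thinned counts was 4.36 times the mean for 6330410L21Rik, 3.03 times for 1700013H16Rik and 2.94 times for Crygd, where counting alone gives a value near 1. It was 1.44 times for both Scml2 and Myh13. Single cells reached 81 UMIs of 6330410L21Rik and 57 of Crygd before thinning. In the negative library the variance was 4.05 times the mean for 1700013H16Rik, with up to 41 UMIs in a cell, and 1.1 times for Crygd. A level averaged over cells thus hides an uneven spread of 1700013H16Rik over the cells of both libraries.

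The genes were found together in the same cells more often than the product of their shares. The genes were chosen together for the same kind of positive-library cells, so their co-detection is in part fixed by the choice. Pairs of other genes were not counted, so the counts of pairs are a description. In the positive library all 28 pairs were above the product, by 1.22-fold to 2.30-fold with a median of 1.59. The highest was Scml2 with Cox7b2, found together in 235 cells where the product gives 102. Cox7b2 with 1700018B24Rik came to 283 cells (product 124) and Cox7b2 with 1700013H16Rik to 256 (product 118). The lowest was 1700013H16Rik with 6330410L21Rik, 214 cells against 175.

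In the negative library, where each gene was rarer, the ratios were higher for the most part. A ratio cannot exceed the inverse of the commoner gene's share, so the ratios of the 2 libraries are not on one footing: the variance of the number of the 8 genes per cell was 1.98 where the product gives 1.06 in the positive library, and 0.522 where it gives 0.351 in the negative. In the negative library 27 of 28 pairs were above the product, with a median of 2.08, and the 6 pairs among Scml2, Cox7b2, 1700013H16Rik and 1700018B24Rik stood at 5.77-fold to 6.95-fold. Cox7b2 and 1700013H16Rik were together in 27 cells where the product gives 3.88, and Scml2 and Cox7b2 in 31 where it gives 4.55. Of the 116 negative-library cells with Cox7b2, 40 also held 1700018B24Rik. 6330410L21Rik did not follow these 4 closely, with ratios from 1.33 for Scml2 to 1.82 for 1700018B24Rik, and Myh13 with Gm9732 was the pair below the product, 5 cells against 6.64. The 4 genes lie on chromosomes X, 5, X and 3 and share no stretch of 31 bases with one another.

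**Figure D2:**
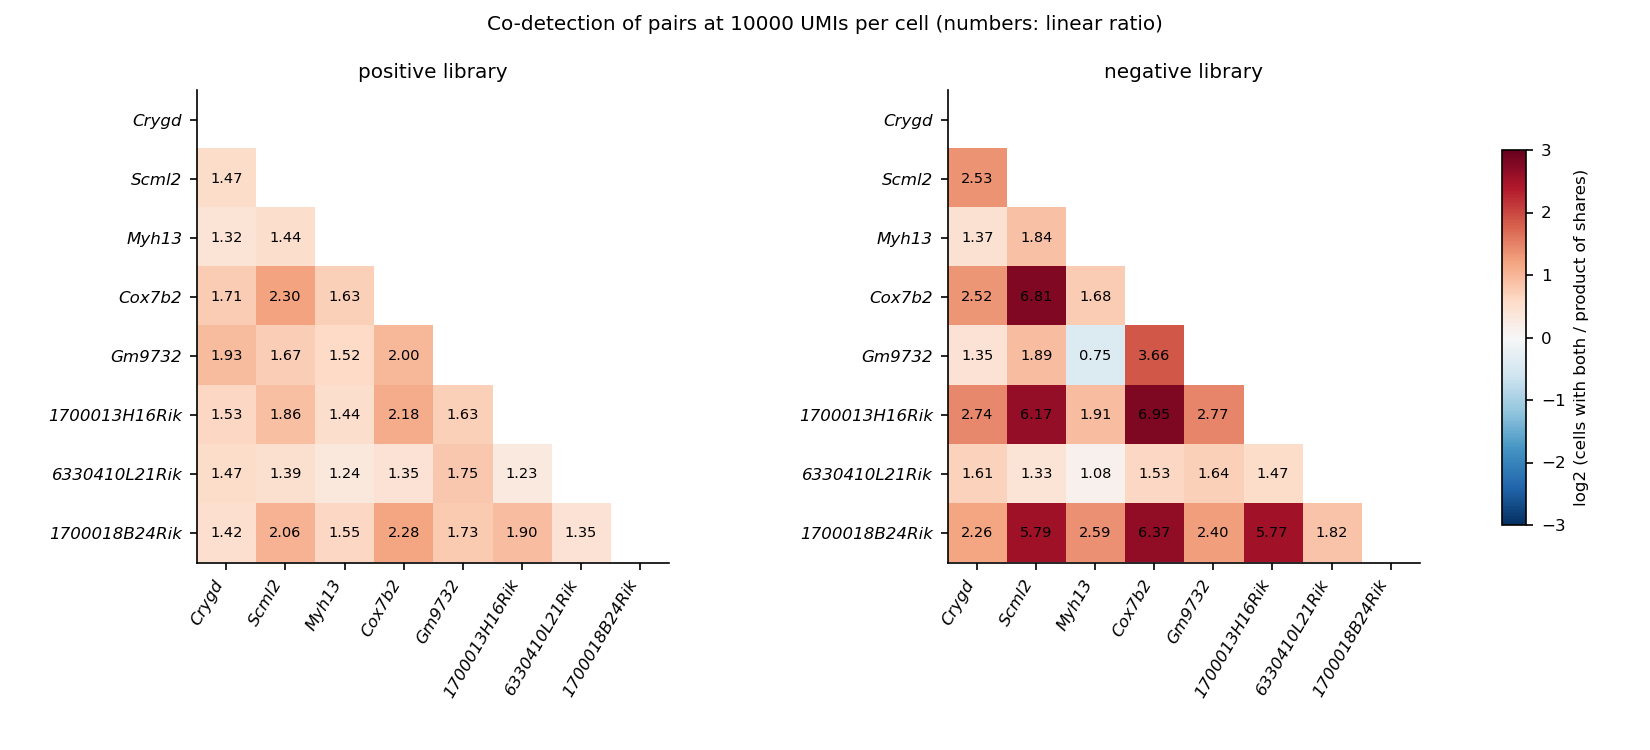
Cells in which both genes of a pair had a UMI at 10000 UMIs per cell, divided by the number that the product of their shares gives, for the positive library (4402 cells) and the negative library (3824 cells). Colour is the log2 of the ratio and the number is the ratio itself; in the negative library the block of Scml2, Cox7b2, 1700013H16Rik and 1700018B24Rik stands at 5.77 to 6.95.

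Counting how many of the 8 genes each cell held gave the same picture. In the positive library 63.3% of cells held at least 1 and 17.8% held 3 or more, where the product of shares gives 12.4%, and the most in a cell was 7. In the negative library 27.5% held at least 1 and 2.01% (77 cells) held 3 or more, where the product gives 0.440%. Among double-negative cells of the positive library 23.7% held 3 or more (product 19.3%), and among Zscan4-rich cells 11.7% (product 6.47%). Within double-negative cells all 28 pairs were above the product, with a median ratio of 1.54. Within Zscan4-rich cells 23 of 28 were, with a median of 1.51, and the lowest was Crygd with 1700018B24Rik at 0.567, 4 cells against 7.06.

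**Figure D3:**
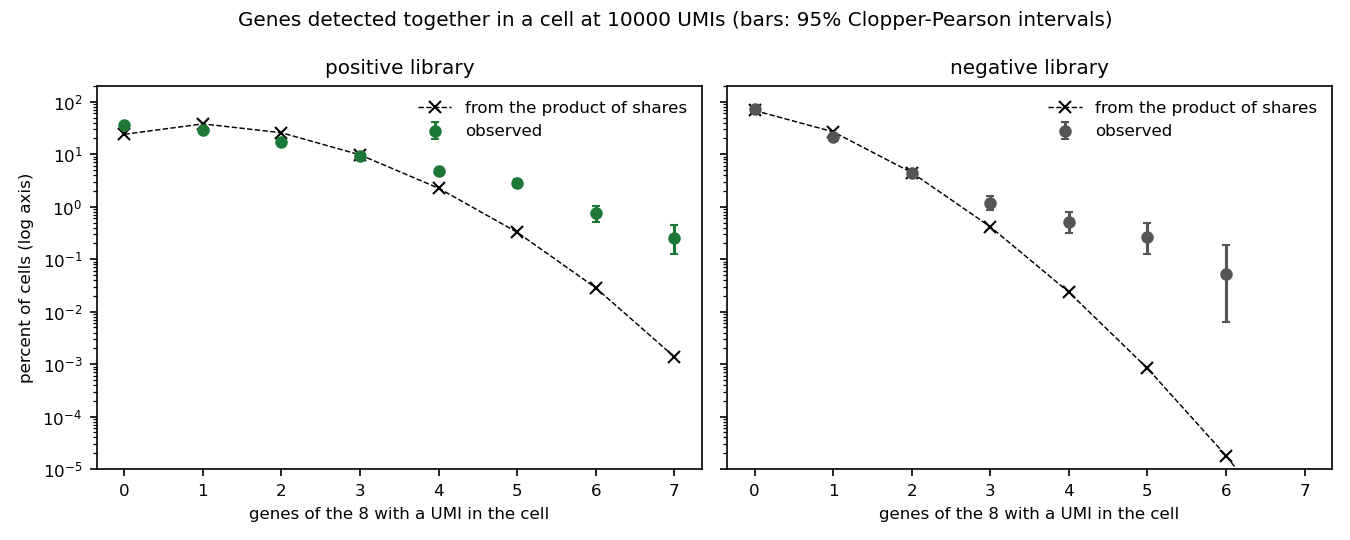
Share of cells (y axis, percent, log axis) by the number of the 8 genes with a UMI at 10000 UMIs per cell (x axis), observed with 95% Clopper-Pearson intervals and as the product of the separate shares gives (crosses). From 4 genes up to the most found in a cell, 7 in the positive and 6 in the negative library, the observed shares lie above the crosses, for example 2.86% against 0.326% at 5 genes in the positive library.

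Positive-library cells with more of the 8 genes had less GFP and Zscan4 RNA, a direction that the choice of the genes also fixes. From positive-library cells with none of the 8 to those with 3 or more, GFP went from 240 to 129 CPM, the Zscan4 sum from 358 to 199 CPM and the endoderm list from 1716 to 627 CPM, while the share of double-negative cells went from 19.3% to 31.5%. Endoderm-rich cells made up 22.2% of the cells with none, and without them the endoderm list went the other way, from 423 to 479 CPM. The median depth was 29922 and 30597 UMIs, so depth differed little. In the negative library, Nanog, a core pluripotency factor, went from 181 to 272 CPM over the same steps. Utf1, a chromatin factor of stem cells, went from 463 to 357 CPM there, and Tet1, which oxidises methylated cytosine, from 360 to 286 CPM. In the positive library without endoderm-rich cells, Nanog went from 451 to 475 CPM and Tet1 from 226 to 194 CPM; with them, Nanog went from 361 to 462 CPM and Tet1 stood at 191.5 and 190.3 CPM. Pou5f1 stood at 391 and 390 CPM in the negative library.

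**Figure D4:**
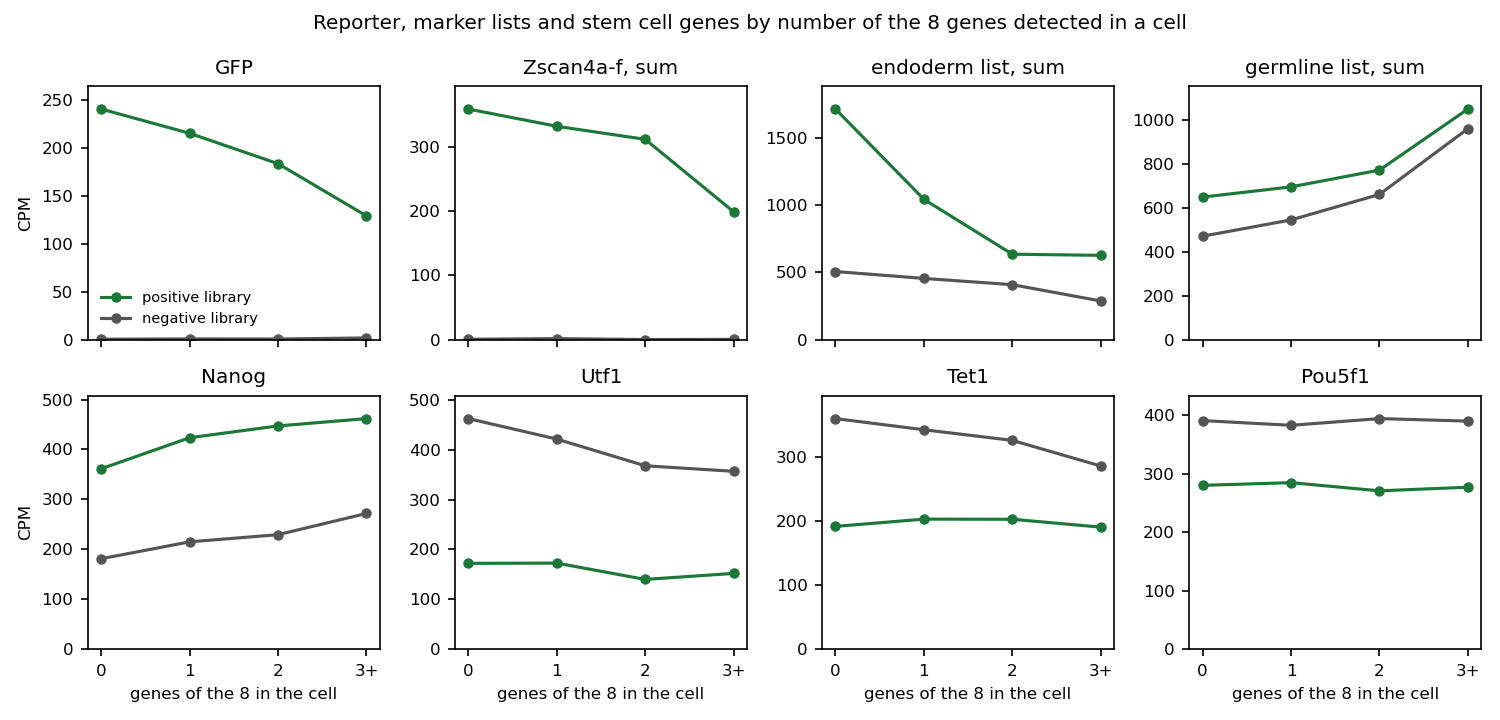
Level (y axis, CPM, linear from 0) of GFP, the Zscan4 sum, the endoderm and germline lists and 4 stem cell genes by the number of the 8 genes detected in a cell (x axis), in the positive (green) and negative (grey) library. In the positive library GFP and Zscan4 are lower with more of the genes; in both libraries the germline list is higher, and Pou5f1 is nearly level.

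Cells with 3 or more of the 8 genes were set against cells with none within each library, leaving out endoderm-rich cells. This comparison was added after the co-detection was seen. In the positive library (759 against 1258 cells) 0.854% of 8080 other genes were higher by at least 2-fold, 69 genes, and in the negative library (76 against 2624 cells) 1.3% of 7488 were, 97 genes. The comparison was made within each library, and the 2 libraries had 3 barcodes in common. In both libraries 41 genes were higher, which is 59.4% of those called in the positive library and 42.3% of those in the other. None was lower in both. Of the 41, 15 (36.6%) lie on the X chromosome, where 3.38% of the 7194 genes tested in both libraries lie. The cells were set by the 8 genes, of which 2, Scml2 and 1700013H16Rik, are on the X chromosome themselves. The part of this in the share was not tested.

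The 15 genes on the X chromosome include Usp26, Fthl17c, Rhox5 and Xlr3c. Usp26, a testis deubiquitinase, had 88.5 against 33.2 CPM in the positive and 63.1 (189 UMIs, 54.4 to 72.8 CPM) against 2.46 CPM in the negative library. Fthl17c, a ferritin-like gene, had 176 against 36.4 CPM and 132 against 6.11 CPM. Rhox5, a homeobox gene of the reproductive cluster, had 263 CPM in positive-library cells with 3 or more, where cells with none had an interval of 96.9 to 103 CPM, and 466 against 103 CPM in the negative library. Xlr3c, of a lymphocyte-regulated family with many near copies, had 23.9 against 2.77 CPM and 21.7 against 1.78 CPM. Xlr, Xlr3b, Rhox1, Fthl17e, Fthl17f, Tslrn1, Taf7l, Tsx, Efhc2, Tm9sf5 and Gm15262 complete the 15. Counts within the Fthl17, Xlr and Rhox families are uncertain, since near-identical copies can share reads.

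The other 26 of the 41 lie on autosomes and include Asz1, Gtsf1, Dazl and Dppa3. Asz1, a germ cell protein of the piRNA pathway, had 27.2 against 2.65 CPM in the positive library and 13.4 (40 UMIs, 9.55 to 18.2 CPM) against 0.243 CPM in the negative. Gtsf1, of the same pathway, had 40.6 against 8.43 CPM and 49.1 against 6.31 CPM. Dazl, an RNA-binding protein of germ cells, had 158 against 73.6 CPM and 44.1 against 14.6 CPM. Dppa3, a maternal factor that protects DNA methylation, had 97.1 against 41.8 CPM and 16.7 against 6.63 CPM. Aim2, a sensor of cytosolic DNA, had 36.0 against 9.71 CPM and 47.8 against 6.56 CPM. Cryge, which shares stretches with Crygd, had 31.4 against 6.83 CPM and 23.1 against 6.17 CPM.

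Of the list of 26 germline genes, 13 were tested in both libraries and 5 were higher in both, as were 41 of all 7194 genes tested in both: Dazl, Asz1, Rhox5, Taf7l and Slc25a31. Over the whole list the summed level went from 470 to 960 CPM between negative-library cells with none and with 3 or more of the 8 with endoderm-rich cells included. Rhox5 alone went from 103 to 466 CPM when these were left out. Ddx4, an RNA helicase of germ cells, did not reach 10 CPM in the negative library (5.68 against 9.16 CPM), and Sycp3, of the synaptonemal complex, did not pass there with 33.4 against 30.7 CPM. Restricting both libraries to double-negative cells left 39 genes higher in both, 35 of them among the 41, and defining the cells by 2 or more of Scml2, 1700013H16Rik and 1700018B24Rik, whose reads match no other gene, left 33, of which 32 were among the 41.

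**Figure D5:**
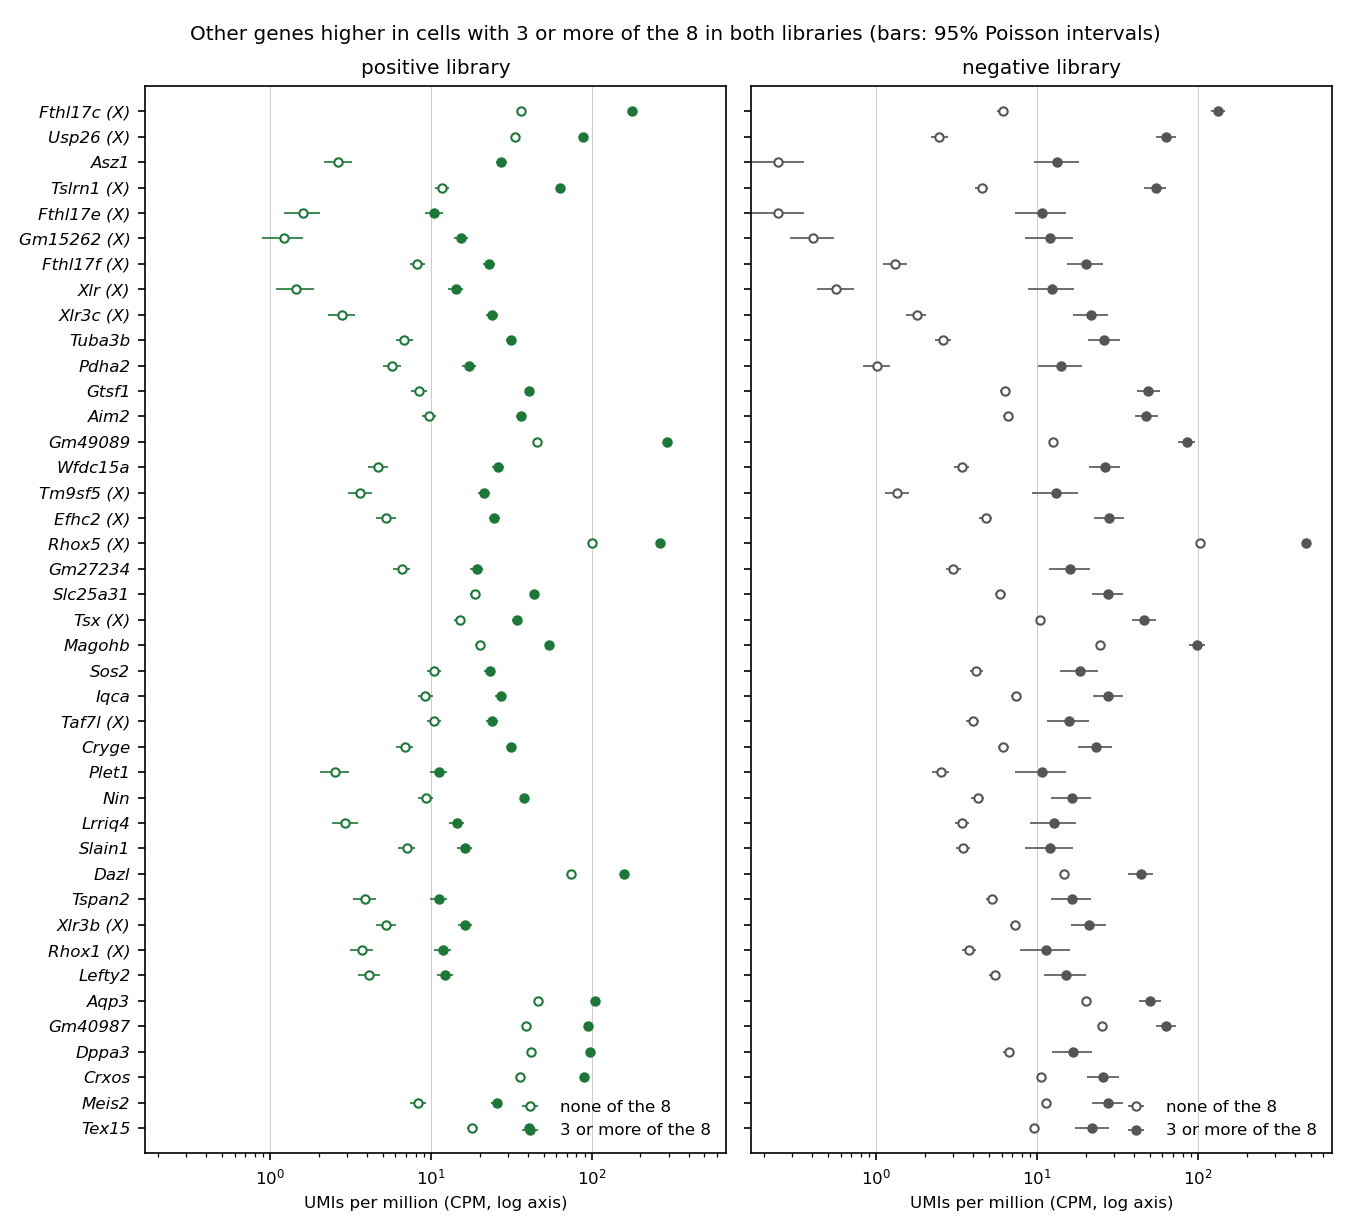
The 41 other genes that were higher by at least 2-fold of CPM + 1 in both libraries, as CPM (x axis, log axis) in cells with none (open) and with 3 or more (filled) of the 8 genes, with 95% Poisson intervals; X marks genes of the X chromosome. In the negative library Usp26, at 63.1 against 2.46 CPM, and Fthl17c, at 132 against 6.11 CPM, are the widest apart by the ratio of CPM + 1.

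Most of the 41 also tended to the positive library as a whole. By the sum over all cells, 40 of the 41 had a higher level there, with a median log2 ratio of 1.23, where 13066 of 19341 genes with at least 50 UMIs were higher with a median of 0.16. The 41 were found through genes chosen for being higher in this library, so this too is a description. Of the 41, 6 passed the 4-fold rule, as did 3% of all genes tested: Crxos, Dazl, Dppa3, Fthl17c, Fthl17f and Usp26. Lefty2 was the exception, with 8.56 CPM in the positive and 8.68 CPM in the negative library.

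In the families to which the named genes belong, Scml2 alone passed the 4-fold rule between the whole libraries. The median log2 ratio was 0.52 for gamma crystallins, 0.27 for myosin heavy chains, 0.26 for the Scm and MBT family, 0.24 for Polycomb repressive complex 1 and 0.55 for the tissue isoforms of cytochrome c oxidase, against 0.16 over all genes with at least 50 UMIs. All these lists except Polycomb repressive complex 1 include a gene of the 8, chosen on this contrast. Nothing is therefore read from their medians. Of 8 gamma crystallin genes, 1, Crygd, passed the 4-fold rule in double-negative cells, and none did over whole libraries. Cryge stood at 13.8 and 7.19 CPM and Crygc, the neighbour on the other side, at 4.32 and 1.39 CPM. Of 12 lens genes none was tested at 10 CPM. Their most abundant were Mip, the lens water channel, at 1.77 and 3.25 CPM, and Crybb3, a beta crystallin, at 1.67 and 2.46 CPM.

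Other muscle genes did not pass the rule. Of 14 myosin heavy chains 3 were tested, and beside Myh13 these were the non-muscle forms Myh10, at 67.7 and 45.5 CPM, and Myh9, at 33.9 and 26.6 CPM. Of 12 skeletal muscle genes 2 were tested and none passed: Mylpf, a fast muscle light chain, was at 183 and 263 CPM, and Ttn, the giant sarcomere protein titin, at 23.8 and 17.9 CPM. Neighbouring Myh8 and Myh4 were at 0.593 and 0.237 CPM and at 3.75 and 1.60 CPM.

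Among 10 genes of the Scm and MBT family only Scml2 passed, and Sfmbt2, a partner in a related silencing complex, had 18.2 and 6.99 CPM. None of 19 genes of Polycomb repressive complex 1 passed, and its most abundant, Phc1 and Rybp, stood at 125 and 109 CPM and at 113 and 99.2 CPM. Of 7 tissue isoforms of cytochrome c oxidase subunits none passed over whole libraries and Cox7b2 passed in double-negative cells, while Cox6b2, a testis isoform, had 148 and 79.2 CPM and Cox7a1, a muscle isoform, 52.0 and 30.7 CPM. The 12 ubiquitous subunits of this complex had a median log2 ratio of -0.30.

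Germline genes leaned to the positive library. Of the 26, 24 had a log2 ratio above 0, as did 13066 of all 19341 genes with at least 50 UMIs, and the medians were 0.54 and 0.16. Of 13 tested, 2 passed the 4-fold rule, where 3% of all tested genes did: Dazl at 95.7 and 15.5 CPM and Sycp1, a protein of the synaptonemal complex, at 17 and 2.40 CPM. Spermatid genes were low in both libraries: of 10 none reached 10 CPM. The 3 with at least 50 UMIs had a median log2 ratio of 0.58. These were Ldhc, a sperm lactate dehydrogenase, at 3.69 and 3.51 CPM, Tnp1 at 0.680 and 0.121 CPM and Spaca1 at 0.745 and 0.134 CPM.

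The genes next to the 8 on the chromosome were about as often low as genes in general. Of 32 nearest genes, 25 (78.1%) were below 1 CPM in both libraries, as were 73.7% of all 55415 features. Of the 32, 5 were at 0 in both, 1 was tested, Cryge, and none passed the rule. Gm15262, which lies 29243 bases from Scml2, had 4.66 and 0.812 CPM in the libraries and 12.0 (36 UMIs) against 0.402 CPM in negative-library cells with 3 or more against none of the 8.

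Across 10 classes of cells (9 by GFP and Zscan4 in the positive library, and the negative library) the levels of the 8 genes had a median Pearson r of 0.80 with one another, from 0.50 to 0.98, on log2(CPM + 1). The 9 classes come from 1 library and differ in median depth, from 20360 to 33553 UMIs. The genes were chosen on a contrast that these classes hold, so the correlation between them is a description from which nothing is read. Among 8939 other genes, the 8 with the highest median r to the set were Xpr1 (0.95), Lrrc28 (0.95), Tmx3 (0.94), Phf3 (0.94), Asz1 (0.94), Pdcd6ip (0.94), Cnot1 (0.94) and Eif3a (0.93). Of these only Asz1 was also among the 41 genes. It had 8.57 and 1.01 CPM in the libraries, whereas Xpr1 had 22.5 and 12.7 CPM.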

How the data were processed

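Single mESC were measured in 1 library per group. The counts the authors deposited are whole numbers in a matrix of genes by cells, and are read here as UMIs; the submitters' processing notes name mm10, FastQC 0.11.2, Trim Galore 0.6.4 and STAR 2.7.6a without their roles. The counter, annotation and cell calling are not given in the sources used here. The labels' protocols describe kits for bulk RNA, not how cells were captured.

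Cells with at least 1000 UMIs, 500 genes and at most 20% mitochondrial UMIs were kept, which removed 7 cells. No doublet caller was used; an alternative left out cells above 2 times the median UMIs. UMIs were summed over the cells of a library or class and divided by all UMIs (CPM), with exact Poisson intervals for sums, exact conditional intervals for ratios of CPM and Clopper-Pearson intervals for shares, all at 95%. They cover counting error only. A gene was tested with at least 10 CPM on a side and 50 UMIs in all, and passed at a ratio of CPM + 1 of at least 4 between libraries or 2 between classes of cells. Because of the added 1, a ratio of CPM just above 4 can miss the rule. Classes were set on cells thinned to 10000 UMIs without replacement. The endoderm class, first meant as an alternative, is also reported as a comparison. The members, lists and comparisons were chosen with earlier results of these data known. The rule for names takes the 8 members, their 2 nearest neighbours on each side, list genes past the rule or else the 2 with most UMIs, and the 8 genes most alike; some of these are not reported here, and other names were chosen after their values were seen. Of 55415 features, 94.0% are in the gene annotation used for positions (GENCODE on mm10). Python 3.11.15 with numpy 2.4.6 and scipy 1.17.1, and edgeR 4.0.16 in R 4.3.3 for TMM factors, were used.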

Additional observations from a re-analysis of the deposited data

Results flagged for a closer look

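Crygd, the lens crystallin gene, and Cox7b2, the oxidase subunit gene, had opposite signs in the 2 libraries when endoderm-rich cells were set against the others. For Crygd the log2 ratio of CPM + 1 was -0.20 in the positive and 1.55 in the negative library, and the intervals of its ratio, 0.747 to 0.989 and 2.79 to 4.42, do not overlap. For Cox7b2 it was -0.98 in the positive and 0.11 in the negative library, where the interval of its ratio, 0.769 to 1.54, includes 1. With 1 library each the difference between the libraries was not tested.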

How the results depend on the processing

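No paired analysis was possible because there is a single library for positive and for negative cells. Between the libraries, 2 of the 8 genes passed the 4-fold rule; 6 did with CPM + 0.1, 8 with a ratio of at least 2 and 5 without endoderm-rich cells, and the other 7 settings gave 2. TMM scaling moved the median log2 ratio of all genes from 0.14 to -0.16 and left the 8 genes at 1.17 to 2.30. In double-negative cells 7 passed; TMM scaling gave 2, and 0 thinned UMIs of GFP and the whole 2C list, which left 34 positive-library cells, gave 2. Between Zscan4 classes 2 were lower by at least 2-fold, and 0 were when classes came from the 2C list, whose lowest class held 58 cells. There 6 log2 ratios changed sign, to 0.10 for Scml2, 0.26 for Myh13, 0.69 for Cox7b2, 0.62 for 1700013H16Rik, 0.64 for 6330410L21Rik and 0.39 for 1700018B24Rik; the cause was not tested. Between GFP classes 3 were lower by at least 2-fold, and 1 was at 5000 UMIs per cell. Of 304 log2 ratios of the 8 genes under the alternatives, these 6 were the ones that changed sign. All genes lower by the rule numbered 220 between Zscan4 classes and 501 at 5000 UMIs, and 148 and 419 between GFP classes.

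The median co-detection ratio in the positive library was 1.59 and was 1.40 without thinning; in the negative library it was 2.08, and 2.88 at 5000 UMIs and 1.51 without thinning. The share of positive-library cells with 3 or more of the genes was 17.8%, and 7.42% at 5000 UMIs, 41.9% without thinning, 21.5% with no Zscan4 UMI and 19.8% without endoderm-rich cells; in the negative library it was 2.01%, and 0.861% at 5000 UMIs and 9.08% without thinning. Fewer UMIs per cell give fewer detections by construction. The 41 genes higher in both libraries numbered 33 to 43 under 6 alternatives added after seeing the data.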
